A study of Mus musculus with 16 samples.

Results

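The exercised muscles of VV mice were compared with those of MM (WT) littermates for every gene whose FPKM averaged 1 or more across the 16 mice of the series, which left 10519 of the 18872 genes in the deposited table. FPKM counts sequenced fragments relative to the length of the transcript and to the depth of the library. In VV mice both Camk2g alleles were edited so that CaMKIIγ has a pair of valines in place of the oxidizable methionine pair of its regulatory segment, in every cell of the body, and MM mice have the unedited gene. The members were the 8 exercised mice of 16 in the series, 4 VV and 4 MM, all males of 13 to 15 weeks that ran 350 m on an inclined treadmill and gave whole quadriceps muscle 3 h after the run. The other 8 mice, 4 VV and 4 MM, did not run and show where the exercised comparison differed. They also enter the FPKM limit and the estimate of spread, which was made from all 16 mice. Mice that did not finish the run had been excluded by the study, so both exercised groups hold finishers only. Values are given in the order of VV mice 2161-5, 2161-7, 2296-2 and 2296-3, and of MM mice 2161-4, 2161-9, 2246-4 and 2297-3, which are the numbers in the sample titles.

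CaMKII is a kinase that calcium-bound calmodulin switches on, and it stays active without calcium once its regulatory segment has been phosphorylated or oxidized. The methionine pair lets reactive oxygen species hold the kinase open, and valines at these positions cannot be oxidized. A bout of running raises calcium and reactive oxygen species in muscle, and early afterwards muscle is known to switch on immediate early genes, chaperones, antioxidant genes and sarcomere stress genes, while blood and resident immune cells respond in the tissue.

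The exon that carries the methionine pair is shown because the genotype rests on it. It is exon 11 of the transcript Camk2g-203 in GENCODE release M21, on the minus strand of GRCm38 (mm10) at chr14:20760397-20760480, 84 bases, printed in the wild-type reference form with the codons of the methionine pair in capitals. Those codons lie at bases 20760454 to 20760459.

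Camk2g exon 11: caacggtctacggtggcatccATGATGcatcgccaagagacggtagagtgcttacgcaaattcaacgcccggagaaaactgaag

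The knock-in changes the protein and the deposited table counts fragments of the whole gene, so a Camk2g level does not check the genotype. Camk2g had 56.9, 56.7, 50.5 and 54.1 FPKM in VV mice, against 61.5, 57.7, 63.0 and 59.1 FPKM in MM mice. All 4 VV values lay below all 4 MM values, with a difference of -0.15 ± 0.06 on the log2(FPKM + 0.1) scale (difference ± SE, limma unadjusted p = 0.035, adjusted p = 0.627), and the separation was lost when mice were rescaled by median ratios, by quantiles or within bins of GC content. Camk2a, whose gene also encodes the non-kinase anchoring protein αKAP, so that a gene-level value does not give the kinase alone, had 129, 124, 123 and 124 FPKM in VV mice, against 140.3, 128, 127 and 141 FPKM in MM mice. Camk2b had 40.8, 45.7, 34.8 and 40.8 FPKM in VV mice, against 43.7, 38.2, 44.3 and 39.7 FPKM in MM mice. The VV and MM ranges of these 3 overlapped, with log2 differences of -0.10 ± 0.06 for Camk2a, -0.16 ± 0.10 for Camk2d and -0.04 ± 0.09 for Camk2b, and that of Camk2b turned positive under 3 alternatives. Of the 7 tested genes of the CaMK family, 7 had a lower mean log2 level in VV mice, where 68.7% of all tested genes did. Their median of -0.15 was -0.07 after median ratio scaling or GC centring, -0.08 after quantile scaling and -0.09 without VV mouse 2296-2 or MM mouse 2297-3. Its members included Camk2n1, an inhibitor of CaMKII (-0.29), and Camkk2, a kinase upstream of the family (-0.27).

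Libraries of the 8 exercised mice were similar in depth. The FPKM sum of a mouse was 486307 to 505192 in VV mice and 485446 to 492997 in MM mice, the 10 highest genes held 31.0 to 33.4% of it in VV mice and 30.4 to 32.3% in MM mice, and between 15263 and 15779 genes were above 0. Depth relative to the shallowest mouse, read from genes under 0.5 FPKM, spanned 1 to 1.24 in VV mice and 1.02 to 1.23 in MM mice. Fast skeletal muscle was plain in every mouse, with 9 tested fast fibre genes summing to 112618 to 118604 FPKM in VV mice and 113768 to 116790 FPKM in MM mice. The fast myosin genes Myh1, Myh2 and Myh4 were not among them, and that the muscle is quadriceps comes from the labels. One library stood apart. VV mouse 2296-2 had 2725 FPKM of Rnu1a1, a U1 small nuclear RNA, against 17.8 to 25.4 FPKM in the other VV mice and 9.12 to 52.8 FPKM in MM mice. It also had 136 FPKM of Rn7sk, the 7SK small nuclear RNA, and 1951 FPKM of Lars2, a mitochondrial leucyl-tRNA synthetase gene. The other VV mice had 1.43 to 4.41 FPKM of Rn7sk and 66.6 to 91.3 FPKM of Lars2, and MM mice had 1.14 to 2.86 and 44.1 to 80.5 FPKM.

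No gene passed an adjusted p of 0.05 in exercised VV muscle against exercised MM muscle by limma (0 of 10519 genes, 0%). The smallest adjusted p was 0.124, that of Lrmda, and the next was 0.627, which most genes named below share. At an unadjusted p under 0.05 limma gave 745 genes, where 526 would be reached if no gene differed. The count fell to 603 after median ratio scaling and 618 after quantile scaling. After centring within bins of GC content, which covered 10138 genes, it was 552. Without rescaling the 745 genes were uneven in direction, with 645 genes lower in VV mice (6.13%) and 100 higher (0.951%). The median log2 difference over all tested genes was -0.08 and its SD 0.24, and 68.7% of genes had a difference below 0. The precision was fair, since the median SE of a gene was 0.14, the median 95% interval reached 0.29 to either side, and for 10011 genes (95.2%) the whole interval lay within 1 log2 unit of 0. P values set a difference against the spread between mice within groups, estimated over the exercised and resting groups together.

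A pair of descriptions with no test was used beside limma. By the first, 179 genes (1.7%) lay more than 2 SD below the mean difference, that is under -0.54, and 155 genes (1.47%) lay more than 2 SD above it, that is over 0.40. By the second, all 4 VV values lay below all 4 MM values in 285 genes (2.71%) and above them in 72 genes (0.684%). The excess of lower genes in the second count changed with the scaling of the mice. Rescaling by median ratios brought the median difference to -0.0036 and the split to 156 higher and 150 lower genes, quantile scaling gave 180 higher and 146 lower, and centring each mouse within 20 bins of transcript GC content gave 198 higher and 125 lower, so that 51.0%, 55.2% and 61.3% of the separated genes were higher in VV mice in place of 20.2%. Of the 285 lower genes, 125 kept their separation after median ratio scaling, 134 after quantile scaling and 70 after GC centring, and of the 72 higher genes 52, 63 and 35 did. A lower level of most genes in VV muscle cannot be told apart from a difference in scale in these data, and single genes are given below with the scalings that keep their groups apart.

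**Figure D1:**
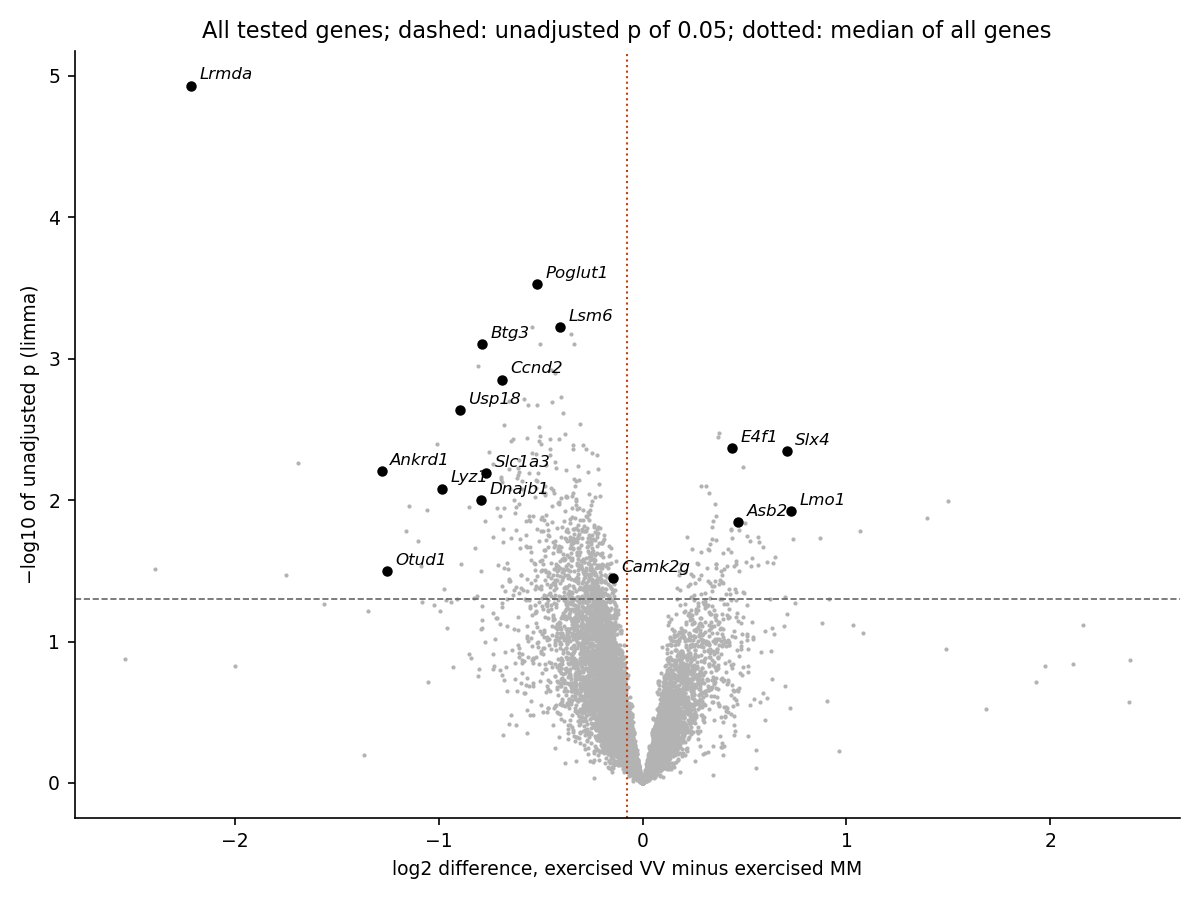
Each point is a tested gene (black and named, genes of the text), with the log2 difference of exercised VV minus exercised MM mice on the x axis and −log10 of the unadjusted limma p on the y axis. The cloud is centred below 0 (dotted line, median -0.08), more points lie above the dashed line (unadjusted p of 0.05) on the left than on the right, and Lrmda stands alone at the upper left. 6 genes beyond 2.6 log2 units are outside the plotted range.

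Differences between VV and MM mice also moved with the GC content of transcripts. Genes were put into 5 equal bins by GC content. From the GC-poorest to the GC-richest bin, the median log2 difference in exercised mice was -0.15, -0.12, -0.09, -0.02 and 0.08, and in resting mice it was -0.13, -0.08, -0.04, 0.03 and 0.13. The separated genes followed the same order, with a median GC content of 57.3% in the 70 higher genes that have a transcript in GENCODE, 47.9% in 277 lower genes and 50.2% in all tested genes. Per mouse, the log2 level of each gene was set against its mean over the 16 mice. The median of the richest bin minus that of the poorest was 0.45, 0.26, 0.10 and -0.19 in VV mice and 0.18, 0.0014, -0.18 and -0.36 in MM mice, so the groups overlapped. GC content is meant by richest and poorest. The part of GC content in the single-gene results was not tested beyond the GC-centred values given with them.

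**Figure D2:**
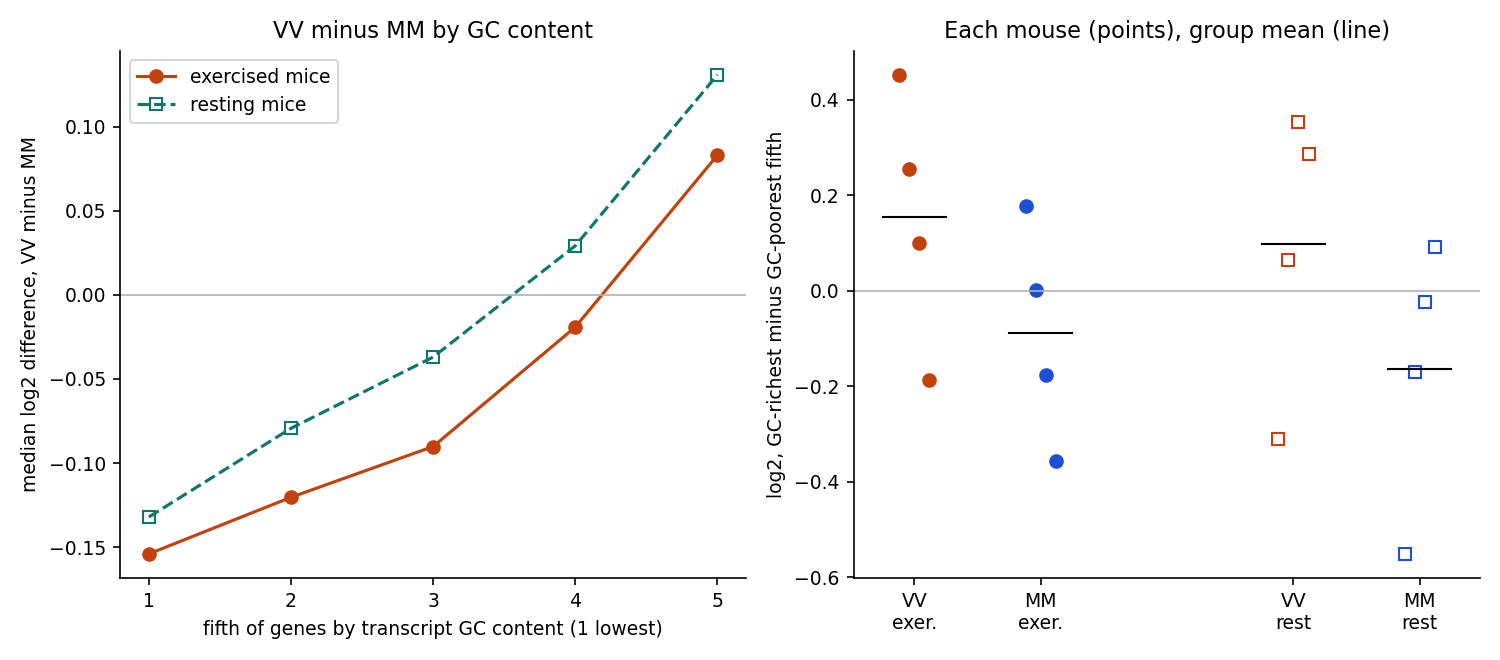
The left panel gives the median log2 difference of VV minus MM mice (y axis) in 5 bins of genes by GC content (x axis, 1 the poorest), and both lines climb from below 0 in the poorest to above 0 in the richest bin, to 0.08 in exercised and 0.13 in resting mice. The right panel gives for each mouse the log2 level of the richest minus the poorest bin, VV left of MM (exer., exercised), with overlapping groups.

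Lrmda, a gene known from melanocyte differentiation and listed in the table as 1700112E06Rik, showed the widest separation among the genes with the smallest p values. It lies at chromosome 14, 22019504 to 23056093 of GRCm38 and had 0.325, 0.297, 0.403 and 0.250 FPKM in VV mice, against 1.63, 0.895, 1.87 and 3.99 FPKM in MM mice. All 4 VV mice were lower, with a difference of -2.22 ± 0.36 (limma adjusted p = 0.124), and the groups stayed apart under all 3 rescalings. Every VV mouse, exercised or resting, was under the limit of 1 FPKM, so the gene was tested only because of its level in MM mice. Lrmda passed limma when MM mouse 2161-9, the lowest of the MM mice, was left out (-2.54, limma adjusted p = 0.018). Over the 26 alternatives its limma adjusted p ran from 0.018 to 0.754 and its difference from -2.68 to -1.14. Resting muscle showed the same, with 0.283, 0.255, 0.335 and 0.683 FPKM in VV mice against 2.34, 3.40, 2.95 and 1.46 FPKM in MM mice (-2.45 ± 0.36), and there Lrmda was the 1 gene that passed limma (0.00951% of tested genes), although it did not pass there under either scaling alternative, GC centring and several other settings, nor with most of the mice left out in turn. Lrmda starts 1.23 Mb from Camk2g on chromosome 14. Within 2 Mb of Camk2g 33 genes were tested, of which 3 were lower in all 4 VV than in all 4 MM mice (9.09%, against 2.71% of all tested genes), namely Camk2g, Lrmda and Ube2e2, and 0 were higher (against 0.684%). Of these 3 only Camk2g lost its separation, under every rescaling. Within 5 Mb 3 of 48 tested genes were lower in all 4 VV mice (6.25%), and over the whole chromosome 9 of 363 were (2.48%). These counts include Camk2g, on which the windows are centred, and Lrmda, which was tested only because of its level in MM mice. The shares near Camk2g therefore cannot be read as a result about the region. Ube2e2, a ubiquitin-conjugating enzyme, had 1.86, 2.28, 1.84 and 1.97 FPKM in VV mice, against 2.72, 2.64, 3.66 and 3.15 FPKM in MM mice (-0.58 ± 0.16), and its resting difference was -0.06. The chromosome around the edited gene travels with the knock-in from one generation to the next, and its part in these values was not tested.

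All 20 genes with the smallest p values, Lrmda included, were lower in VV mice. Lsm6, a subunit of the ring that binds U6 small nuclear RNA, had 32.7, 33.8, 32.1 and 36.2 FPKM in VV mice, against 43.2, 42.4, 42.7 and 50.4 FPKM in MM mice. Snrpf, a core protein of spliceosomal particles, had 13.8, 14.8, 14.3 and 15.9 FPKM in VV mice, against 17.6, 19.5, 17.7 and 20.4 FPKM in MM mice. Rbmx, an RNA-binding splicing regulator, had 6.60, 6.83, 7.35 and 8.20 FPKM in VV mice, against 8.30, 9.58, 9.70 and 10.5 FPKM in MM mice. In each of the 3 the groups did not overlap, with differences of -0.40 ± 0.10, -0.35 ± 0.08 and -0.39 ± 0.11, and for Snrpf the groups met after GC centring. Taf1b, a subunit of the factor that recruits RNA polymerase I to ribosomal DNA, was likewise separated, at 3.02 to 3.41 FPKM in VV mice and 3.71 to 4.99 FPKM in MM mice (-0.43 ± 0.11).

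The gene with the smallest p after Lrmda was Poglut1, which adds O-glucose to the Notch receptors. It had 4.01, 3.82, 3.97 and 3.81 FPKM in VV mice, against 4.93, 5.46, 6.38 and 5.84 FPKM in MM mice, a difference of -0.52 ± 0.11 with a 95% interval of -0.76 to -0.28 (limma unadjusted p = 0.0003). The VV values fell in a narrow band under the whole MM range, and the groups stayed apart under all 3 rescalings. Ctso, a lysosomal cathepsin, had 3.55, 2.86, 3.51 and 4.18 FPKM in VV mice, against 4.90, 5.34, 4.50 and 5.90 FPKM in MM mice (-0.54 ± 0.13), with no overlap. Ctsk, another cathepsin, had 5.22, 3.98, 3.65 and 3.97 FPKM in VV mice, against 6.53, 7.29, 4.96 and 8.18 FPKM in MM mice (-0.66 ± 0.18), where the highest VV mouse, 2161-5, passed the lowest MM mouse, 2246-4. Btg3, which restrains proliferation, had 1.59, 1.45, 1.42 and 2.49 FPKM in VV mice, against 2.56, 2.71, 3.46 and 3.32 FPKM in MM mice (-0.79 ± 0.19). Ccnd2, the cyclin D2 of the G1 phase, had 2.17, 1.26, 1.49 and 1.99 FPKM in VV mice, against 2.84, 2.58, 2.77 and 3.02 FPKM in MM mice (-0.69 ± 0.18). Lin9, a subunit of a complex that controls cell cycle genes, had 1.36, 1.66, 1.36 and 1.69 FPKM in VV mice, against 1.99, 2.06, 2.16 and 3.01 FPKM in MM mice (-0.56 ± 0.15). These 3 kept their groups apart under all 3 rescalings, though each is expressed at only a few FPKM.

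The remaining genes named by their p values had smaller or overlapping differences. Fkbp7, a prolyl isomerase of the endoplasmic reticulum (-0.50 ± 0.12), Serhl, a serine hydrolase-like gene (-0.34 ± 0.08), and Snx6, a sorting nexin of the retromer (-0.40 ± 0.11), were lower in all 4 VV mice, and the groups of Fkbp7 and Serhl met after GC centring. So was 8430426J06Rik (-0.81 ± 0.21), but its separation was lost under median ratio and quantile scaling. Fgf1, a fibroblast growth factor, had 10.4 to 14.3 FPKM in VV mice and 13.8 to 18.7 FPKM in MM mice (-0.45 ± 0.12), Xpa, a DNA damage recognition factor, differed by -0.52 ± 0.14, and Smim8, listed as 1810030N24Rik, by -0.45 ± 0.12, with overlap in all 3.

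The lowest differences among separated genes were in genes of low level. Igkc, the immunoglobulin kappa constant chain made by B and plasma cells and listed in the table as Igkc,Igkj2,Igkj4, had 1.15, 0.474, 0.766 and 0.390 FPKM in VV mice, against 1.51, 1.39, 2.31 and 6.66 FPKM in MM mice (-1.75 ± 0.75), with MM mouse 2297-3 far above the rest. Most of its VV values, exercised or resting, lay under the limit of 1 FPKM. At rest MM mouse 2127-3 had 8.33 FPKM and the other MM mice 0.414 to 1.13 FPKM. Lyz1, a lysozyme gene whose fragments can be split with its near copy Lyz2, had 4.53, 1.48, 2.79 and 3.62 FPKM in VV mice, against 4.65, 6.63, 5.28 and 6.86 FPKM in MM mice (-0.98 ± 0.33). Slc1a3, a glutamate transporter, had 1.67, 1.74, 1.53 and 1.67 FPKM in VV mice, against 2.46, 2.90, 4.00 and 2.41 FPKM in MM mice (-0.77 ± 0.25). Fer1l6, of the ferlin family, and Gm3934 were separated as well, at -0.85 ± 0.30 and -0.77 ± 0.28. The groups of Lyz1 met after GC centring and those of Gm3934 after median ratio scaling, and neither Gm3934 nor Igkc has a GC-centred value. Asns, the asparagine synthetase, had 0.449, 0.671, 0.922 and 1.27 FPKM in VV mice, against 1.56, 2.24, 1.51 and 1.32 FPKM in MM mice (-0.98 ± 0.44), but the groups met under every rescaling and the resting difference was 0.94.

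Fewer genes were higher in VV mice. Slx4, a scaffold for DNA repair nucleases, had 2.34, 3.22, 1.82 and 1.92 FPKM in VV mice, against 1.62, 1.27, 1.21 and 1.32 FPKM in MM mice (0.71 ± 0.22). E4f1, a zinc finger regulator of the p53 pathway and of mitochondrial metabolism, had 6.08, 6.60, 5.52 and 6.33 FPKM in VV mice, against 4.23, 5.05, 4.88 and 3.88 FPKM in MM mice (0.44 ± 0.13). Asb2, which guides a ubiquitin ligase to filamins and is known to restrain muscle mass, had 242, 182, 236 and 178 FPKM in VV mice, against 174, 138, 145 and 146 FPKM in MM mice (0.47 ± 0.17). In these 3 every VV mouse was above every MM mouse, but the separation of Asb2 was lost after median ratio scaling and that of E4f1 after GC centring. Lmo1, a LIM-only transcriptional cofactor, differed by 0.73 ± 0.26 and was separated under all 3. Other separated genes were Prr12 (0.49 ± 0.23), the peptidase Thop1 (0.47 ± 0.18), the outer mitochondrial membrane protein Tspo (0.45 ± 0.21), the endothelial transcription factor Sox18 (0.43 ± 0.17) and Coa4, a cytochrome c oxidase assembly factor listed as Chchd8 (0.44 ± 0.17). The groups met after median ratio scaling for Prr12 and after GC centring for Thop1, Tspo, Sox18 and Chchd8.

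**Figure D3:**
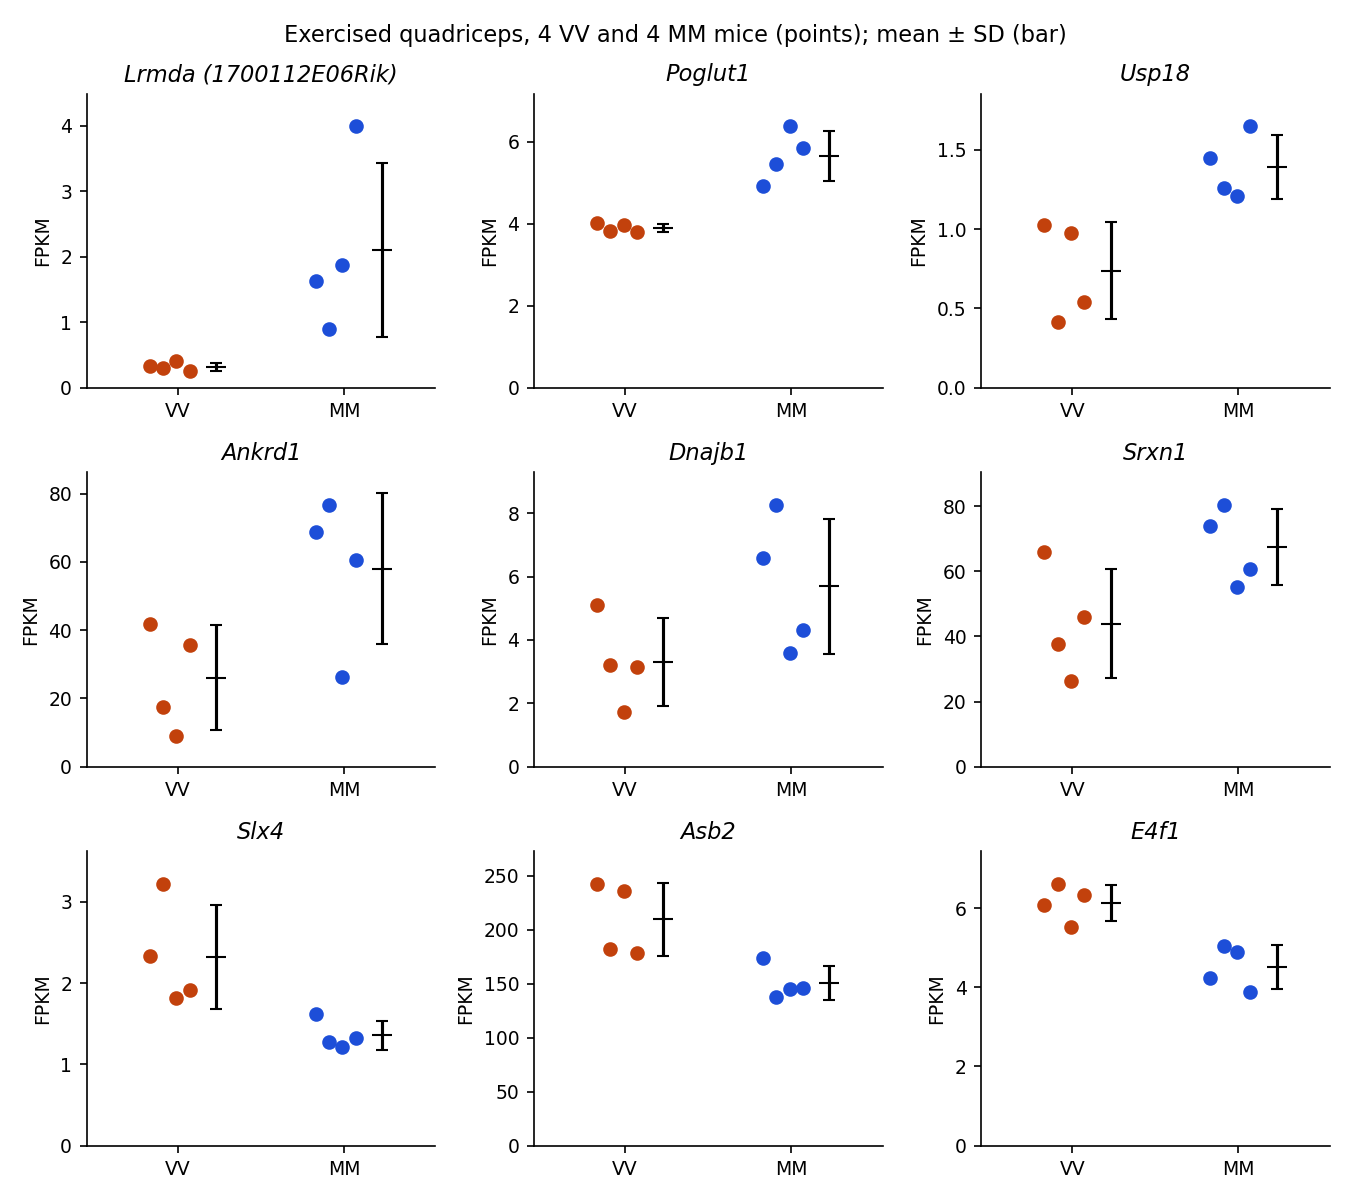
FPKM (y axis, from 0) of 9 genes in each exercised mouse, VV left and MM right, with the mean and SD beside the points. VV mice sit below MM mice without overlap in Lrmda, Poglut1 and Usp18 and above them in Slx4, Asb2 and E4f1, while in Ankrd1, Dnajb1 and Srxn1 the highest VV mouse passes the lowest MM mouse.

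Among genes that muscle makes under mechanical strain, the largest differences had low values in VV mice. Ankrd1, which binds titin and responds to stretch, had 41.9, 17.5, 9.06 and 35.7 FPKM in VV mice, against 68.6, 76.6, 26.3 and 60.6 FPKM in MM mice (-1.28 ± 0.40, limma unadjusted p = 0.0062). Without exercise its range was 4.83 to 6.01 FPKM in resting VV mice and 4.78 to 7.68 FPKM in resting MM mice. Otud1, a deubiquitinase, had 43.4, 15.2, 5.04 and 24.1 FPKM in VV mice, against 53.4, 61.1, 19.1 and 42.6 FPKM in MM mice (-1.25 ± 0.53). Enah, which lengthens actin filaments, had 38.2, 18.1, 18.0 and 37.2 FPKM in VV mice, against 47.0, 59.3, 24.5 and 52.1 FPKM in MM mice (-0.74 ± 0.28). In each of the 3, VV mouse 2296-2 was the lowest, VV mouse 2161-5 the highest of the VV mice, and MM mouse 2246-4 the lowest of the MM mice, so that the groups overlapped. Anxa1, an annexin of membrane repair and of the control of inflammation, differed by -0.55 ± 0.22. These 4 were the members beyond 2 SD on the low side, and Pdlim7 (0.51) the 1 on the high side, of 38 tested sarcomere and membrane stress genes. Of the 38, 28 were lower and 10 higher, 0 passed limma, 5 reached an unadjusted p under 0.05, all on the low side, and the median was -0.09, near the -0.08 of all tested genes. Of all tested genes, 6.13% reached that p on the low side and 1.7% lay beyond 2 SD there.

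Chaperone and antioxidant genes showed a similar order of mice. Dnajb1, an inducible HSP40 cochaperone, had 5.10, 3.20, 1.72 and 3.15 FPKM in VV mice, against 6.60, 8.26, 3.60 and 4.31 FPKM in MM mice (-0.79 ± 0.27). Dnajb4, a related cochaperone of muscle, had 61.6, 45.8, 40.2 and 67.1 FPKM in VV mice, against 77.6, 79.5, 63.5 and 74.5 FPKM in MM mice (-0.48 ± 0.18). Srxn1, the sulfiredoxin that repairs oxidized peroxiredoxins, had 65.8, 37.6, 26.3 and 46.1 FPKM in VV mice, against 73.9, 80.3, 55.1 and 60.8 FPKM in MM mice (-0.68 ± 0.24). VV mouse 2296-2 was the lowest in all 3, and without it the differences of Dnajb1, Srxn1, Ankrd1 and Otud1 were -0.53, -0.46, -0.85 and -0.68. The lists they belong to stood near the background, where 68.7% of all tested genes were lower. Of 32 heat shock and chaperone genes 20 were lower (median -0.08) and of 30 NRF2 and antioxidant genes 19 were (median -0.10). At an unadjusted p under 0.05 there were 3 and 2 genes, all lower, where 6.13% of all tested genes were on that side. The metallothioneins Mt1 (0.35) and Mt2 (0.35) and Osgin1 (0.39) had the highest values of the antioxidant list.

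Immediate early genes, which calcium and growth signals switch on within minutes, had values on both sides. Of 27 tested, 18 were lower and 9 higher in VV mice, with a median of -0.16, which became 0.01 when VV mouse 2296-2 was left out, -0.01 without MM mouse 2161-4 and -0.37 without VV mouse 2161-7, the limits over the 8 exercised mice being -0.37 and 0.01. Atf3, a stress-induced transcription factor, had 70.0, 32.7, 27.6 and 58.4 FPKM in VV mice, against 94.5, 96.2, 44.9 and 81.3 FPKM in MM mice (-0.79 ± 0.41). Without exercise its range was 0.955 to 4.15 FPKM in resting VV mice and 1.12 to 2.57 FPKM in resting MM mice. Egr1 had 5.84, 16.5, 1.39 and 5.26 FPKM in VV mice, against 10.8, 9.12, 4.94 and 8.62 FPKM in MM mice (-0.62 ± 0.70), a spread within VV mice wider than the gap between the groups. Junb (0.28), Jund (0.20) and Ier3 (0.39) had higher values in VV mice and Btg2 (-0.54) and Klf4 (-0.41) lower ones.

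Interferon-responsive genes, which defend cells against viruses and load MHC class I, were the list with the most separated members. Of 32 tested, 30 were lower in VV mice, where 68.7% of all tested genes were. Of the 32, 5 were separated, where 2.71% of all tested genes were, 6 reached an unadjusted p under 0.05, where 6.13% of all genes did so on this side, and 0 passed limma. Usp18, which removes ISG15 from proteins and damps the interferon receptor, had 1.02, 0.414, 0.974 and 0.543 FPKM in VV mice, against 1.45, 1.26, 1.21 and 1.65 FPKM in MM mice (-0.90 ± 0.25, limma unadjusted p = 0.0023). Ifit3, which binds viral RNA complexes, had 1.87, 1.91, 1.89 and 2.41 FPKM in VV mice, against 2.64, 2.62, 2.48 and 3.38 FPKM in MM mice (-0.44 ± 0.19). Lgals3bp, a secreted galectin ligand, had 7.63, 6.60, 7.18 and 6.25 FPKM in VV mice, against 7.91, 7.78, 8.53 and 10.4 FPKM in MM mice (-0.32 ± 0.14). These 3 stayed separated under all 3 rescalings. Trim30a (-0.33 ± 0.17) and Oasl2 (-0.42 ± 0.22) did not, and lost their separation under each. Gbp2 and Gbp7, guanylate-binding proteins, had 2.77 to 3.67 and 2.75 to 4.17 FPKM in VV mice and 3.34 to 6.80 and 3.82 to 6.40 FPKM in MM mice, with overlap.

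The list median was -0.28 in exercised mice and -0.09 in resting mice, and it lay between -0.34 and -0.15 with each exercised mouse left out in turn, the smallest size being without MM mouse 2297-3. The mean log2 level over the list was 1.73, 1.53, 1.68 and 1.73 in VV mice and 1.81, 1.70, 1.94 and 2.31 in MM mice, so that only MM mouse 2161-9 lay within the VV range. After GC centring the median was -0.20.

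Many interferon-responsive promoters hold the interferon-stimulated response element, a short motif through which interferon signals reach these genes. Windows from 250 bases before to 50 bases after a gene's start, in RefSeq's GRCm38.p6 annotation, were searched for GAAA, any 2 bases and GAAA again on both strands, where the reverse complement reads TTTC, any 2 bases and TTTC, and matches may overlap each other. The motif was in 14 of 27 genes of the list that have a window (51.9%), 272 of 7482 tested genes (3.64%) and 1079 of 27025 genes in all (3.99%). Of the 4 separated genes of the list that have a window, 2 held it, Ifit3 and Trim30a. Stretches around the motif are shown for the genes described above that hold it, with the motif in capitals, at chr19:34583353-34583436 on the plus strand for Ifit3, chr3:142620584-142620633 on the plus strand for Gbp2, chr3:142530263-142530312 on the plus strand for Gbp7 and chr7:104465200-104465249 on the minus strand for Trim30a.

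Ifit3: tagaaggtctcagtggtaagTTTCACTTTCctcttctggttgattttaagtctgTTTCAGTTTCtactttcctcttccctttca
Gbp2: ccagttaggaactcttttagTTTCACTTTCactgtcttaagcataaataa
Gbp7: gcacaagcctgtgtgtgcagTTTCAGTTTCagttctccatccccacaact
Trim30a: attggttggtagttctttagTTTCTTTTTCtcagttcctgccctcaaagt

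The window of Ifit3 holds the motif at 2 places and those of Gbp2 and Gbp7 at 1. Among genes of the list with the motif, values in VV mice ran from lower, as in Gbp2 (-0.60) and Isg15 (-0.47), to about level, as in Rsad2 (-0.03) and Bst2 (0.09). A match is a description of the sequence and not of binding.

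Phagocyte genes had the lowest median of all lists with more than 10 tested members, with wide overlap between mice. In whole muscle, fewer cells of a type and less RNA per cell cannot be told apart. Of 21 tested phagocyte receptor and complement genes, 21 were lower in VV mice, where 68.7% of all tested genes were. Of the 21, 10 were beyond 2 SD, where 1.7% of all genes were on the low side, but 0 were separated. At an unadjusted p under 0.05 there were 2, where 6.13% of all genes were on the low side, and 0 passed limma. Mrc1, the mannose receptor of resident macrophages, had 4.31, 0.989, 1.65 and 2.17 FPKM in VV mice, against 2.80, 4.93, 1.86 and 5.87 FPKM in MM mice (-0.79 ± 0.42). Fcgr3, an Fc receptor, had 4.76, 2.11, 1.92 and 2.57 FPKM in VV mice, against 3.85, 6.81, 2.90 and 5.21 FPKM in MM mice (-0.73 ± 0.41). C3, the central complement component, had 36.5, 16.2, 19.4 and 23.8 FPKM in VV mice, against 31.0, 41.3, 28.4 and 38.5 FPKM in MM mice (-0.59 ± 0.27). VV mouse 2161-5 lay within the MM range in each, and the other 3 VV mice lay below that mouse. The list median was -0.53, against 0.23 in resting mice, -0.81 without VV mouse 2161-5, -0.31 without VV mouse 2161-7 and -0.48 after GC centring. The complement regulator Cfp, properdin, differed by -0.67 ± 0.35.

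MHC class II genes, which present antigen on dendritic cells, macrophages and B cells, followed the same mice. All 6 tested were lower in VV mice, where 68.7% of all tested genes were. Their median was -0.55, against 0.34 at rest, and 3 lay beyond 2 SD, where 1.7% of all tested genes did on the low side. H2-Aa had 31.1, 13.6, 15.0 and 18.4 FPKM in VV mice, against 19.6 to 43.9 FPKM in MM mice (-0.61 ± 0.36). H2-DMa, which edits the peptides, had 1.57, 0.952, 1.47 and 2.01 FPKM in VV mice, against 2.12, 1.98, 1.78 and 3.17 FPKM in MM mice (-0.57 ± 0.27). The invariant chain Cd74, joined in the table with Mir5107, differed by -0.54 ± 0.34. None of the 6 was separated, and the median was -0.35 without MM mouse 2297-3.

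The markers of immune cells are given beside these lists. Mrc1 belongs to both the phagocyte list and the macrophage markers, so the macrophage markers are not a separate observation. All 9 tested macrophage and monocyte markers were lower in VV mice, where 68.7% of all tested genes were. Their median was -0.59 against 0.30 at rest and -0.35 without VV mouse 2161-7, and the sum over 17 markers was 45.6 to 142 FPKM in VV mice and 69.6 to 163 FPKM in MM mice. The defining marker Adgre1, listed as Emr1, was not tested because its mean over the 16 mice missed the 1 FPKM limit. It had 0.216 to 1.40 FPKM in VV mice and 0.570 to 2.58 FPKM in MM mice, and Ly6c2 was at 0 in at least 1 mouse of each group. T and NK cell markers summed to 0.0927 to 0.590 FPKM in VV mice and 0.365 to 1.74 FPKM in MM mice, and 0 of 11 were tested. Cd3d, Cd3g and Cd8a were listed at 0 in every VV mouse. Each was also at 0 in at least 1 MM mouse, with highest MM values of 0.372, 0.211 and 0.0974 FPKM. Nkg7 had 0.0927 to 0.114 FPKM in VV mice and 0 to 0.105 FPKM in MM mice. Levels this near 0 do not tell the groups apart. Neutrophil markers were low too, with 1 of 13 tested and sums of 1.67 to 4.52 FPKM in VV mice and 1.34 to 3.46 FPKM in MM mice. The sum over mast cell markers was 5.18 to 15.9 FPKM in VV mice and 6.48 to 17.9 FPKM in MM mice. Whether the share of these cells accounts for the phagocyte and MHC class II values was not tested.

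Signals that recruit and guide leukocytes were less uniform, beside 68.7% of all tested genes lower in VV mice. Of 20 tested cytokine and chemokine genes 16 were lower and 4 higher in VV mice, with a median of -0.14 (-0.07 after median ratio scaling and -0.05 after quantile scaling), from Hbegf, an EGF receptor ligand (-0.57), and the chemokine Ccl6 (-0.54) to Mif (0.48). Of 15 leukocyte adhesion genes 13 were lower (median -0.19, and -0.10 after GC centring), and Cd44, the hyaluronan receptor, was at -0.40. Among 32 innate receptor and NF-kB genes 23 were lower (median -0.12, and -0.04 without VV mouse 2296-2). Tlr4, the receptor for endotoxin, had 1.17, 1.08, 0.932 and 1.27 FPKM in VV mice, against 1.35, 1.80, 1.35 and 1.90 FPKM in MM mice (-0.48 ± 0.19) and was separated except after GC centring. Map3k8, a kinase downstream of such receptors, had 2.68, 1.70, 0.925 and 2.64 FPKM in VV mice, against 3.18, 3.61, 2.43 and 2.79 FPKM in MM mice (-0.67 ± 0.28), with overlap.

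**Figure D4:**
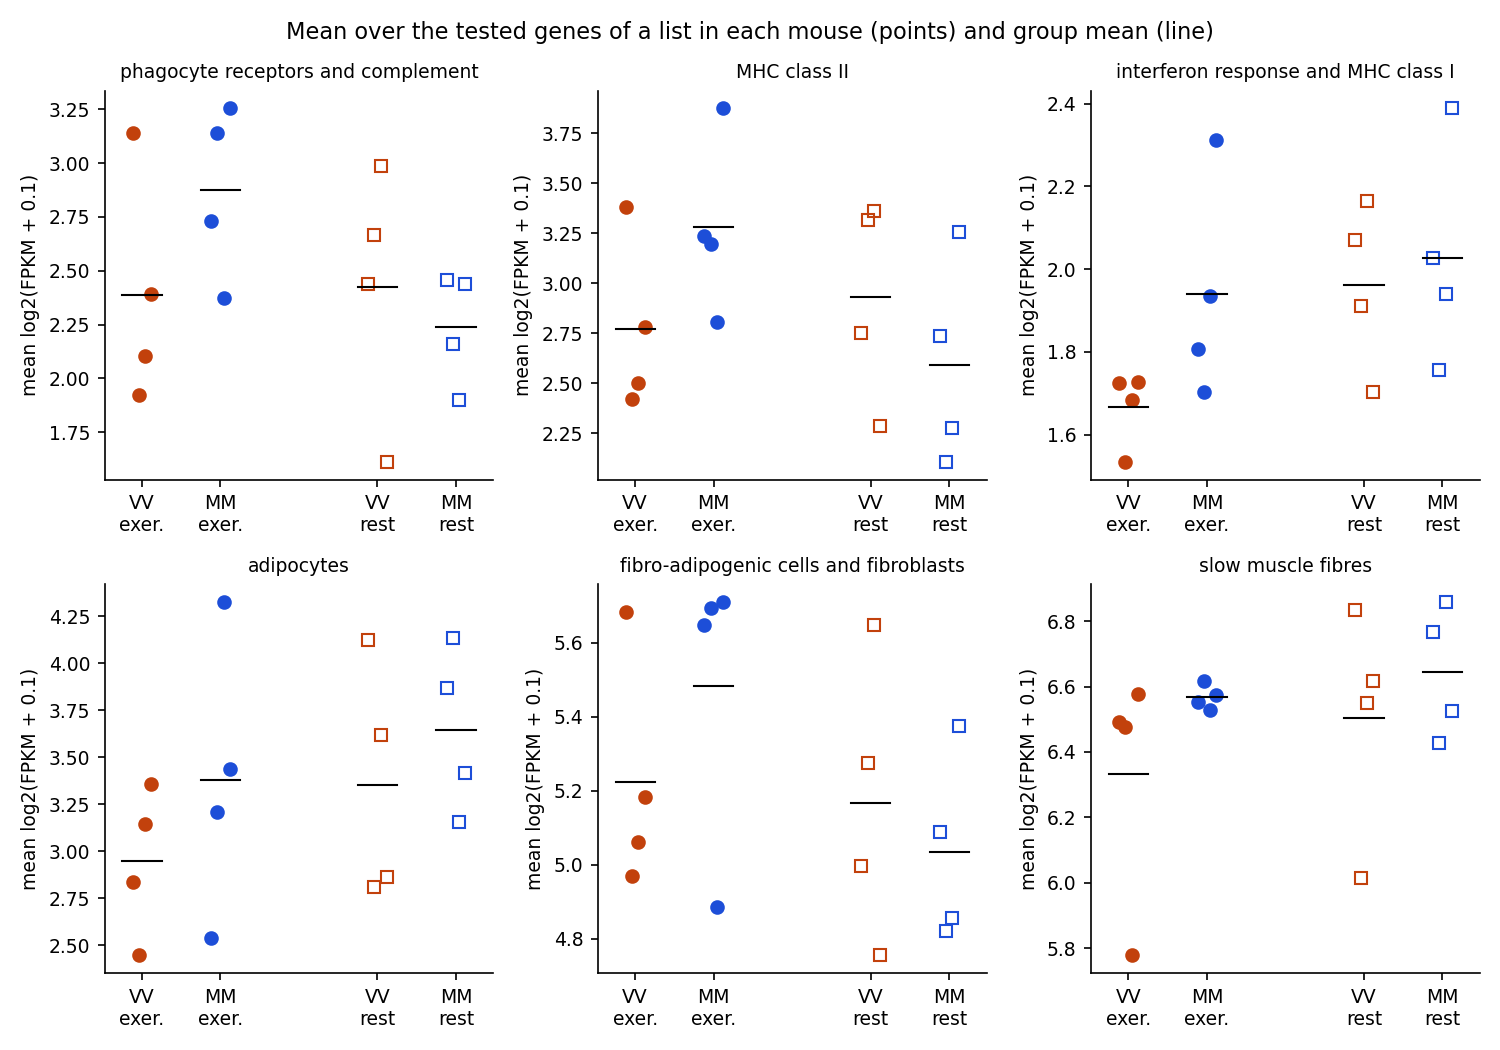
Each point is the mean log2(FPKM + 0.1) of a mouse over the tested genes of 1 list (y axis), with VV left of MM in exercised (exer., filled) and resting (open) mice and a line at the group mean. In the phagocyte and MHC class II panels VV mouse 2161-5 lies with the MM mice, in the interferon panel the exercised groups nearly separate, and in the slow fibre panel VV mouse 2296-2 lies alone at 5.78.

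Connective tissue genes were lower in VV mice in most members and by small amounts. Of 12 tested fibroblast and fibro-adipogenic markers 11 were lower (median -0.22, against 0.14 at rest), and of 32 collagen and matrix genes 27 were (median -0.21, against 0.14 at rest). Of all tested genes 68.7% were lower. Lum, the proteoglycan lumican, had 16.2, 7.46, 11.2 and 12.4 FPKM in VV mice, against 16.8, 18.0, 12.1 and 25.1 FPKM in MM mice (-0.61 ± 0.31). Pdgfra, the receptor that marks fibro-adipogenic cells, had 6.38, 3.13, 3.88 and 5.40 FPKM in VV mice, against 6.85, 7.20, 4.29 and 8.64 FPKM in MM mice (-0.52 ± 0.26). MM mouse 2246-4 was the lowest of the MM mice in both, and without it the medians of the lists were -0.46 and -0.42. The fibroblast median was also -0.40 without VV mouse 2161-5, and the collagen median was -0.34 without that mouse, -0.13 without VV mouse 2161-7 and -0.10 without MM mouse 2297-3. Plau, the urokinase protease (-0.57 ± 0.32), and F3, tissue factor (-0.47 ± 0.22), had the lowest values among matrix genes, while Col4a1 (0.12) and Col4a2 (0.15), the basement membrane collagens, were on the high side.

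Fat and slow fibre markers varied widely between mice of 1 group. All 10 adipocyte markers were lower in VV mice, where 68.7% of all tested genes were. Their median was -0.45 against -0.27 at rest, and their sum was 544 to 696 FPKM in VV mice and 564 to 1396 FPKM in MM mice. Cidec, a lipid droplet protein of fat cells, had 12.1, 7.74, 9.78 and 11.5 FPKM in VV mice, against 8.98, 13.8, 46.9 and 16.5 FPKM in MM mice (-0.79 ± 0.38), and Adipoq, adiponectin, differed by -0.54 ± 0.35. MM mouse 2246-4 was the highest in both, and the list median was -0.18 without it and -0.28 without VV mouse 2161-7. Of 10 slow fibre markers 9 were lower (median -0.29), and the median was -0.06 without VV mouse 2296-2. Tnnt1, the slow troponin T, had 121, 121, 59.6 and 131 FPKM in VV mice, against 124, 134, 124 and 129 FPKM in MM mice (-0.31 ± 0.25), so that its difference came with 1 low VV mouse, and Myl2, a slow myosin light chain, differed by -0.36 ± 0.23. Fast fibre markers (9 tested, median 0.00), endothelial markers (12 tested, median 0.04) and Schwann cell markers (7 tested, median -0.09) had medians near that of all tested genes.

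Contractile, metabolic and hormone-responsive genes had values near or above the background. Of 26 glucose uptake and glycolysis genes 18 were higher in VV mice (median 0.04). Slc16a3, the lactate exporter MCT4, had 101, 81.8, 88.6 and 71.6 FPKM in VV mice, against 66.5, 74.5, 60.8 and 55.9 FPKM in MM mice (0.41 ± 0.19). Slc16a1, the lactate importer MCT1, had 16.2, 17.6, 17.4 and 17.3 FPKM in VV mice, against 17.6, 19.5, 22.9 and 22.2 FPKM in MM mice (-0.26 ± 0.12), and its separation was lost under every rescaling. Of 17 glucocorticoid-responsive genes 12 were higher (median 0.11, from 0.04 without VV mouse 2161-5 to 0.21 without MM mouse 2161-9), from Cebpd (0.45) to Ddit4 (-0.33). Of 22 atrophy and ubiquitin ligase genes 11 were higher (median 0.02), and the ligases Trim63 (0.30) and Fbxo32 (0.22), which drive muscle wasting, overlapped between the groups.

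Genes of growth and of the fibre machinery showed a similar spread on both sides. Srf, the transcription factor of actin genes, had 31.1, 18.4, 20.1 and 18.2 FPKM in VV mice, against 19.9, 17.1, 15.2 and 14.2 FPKM in MM mice (0.38 ± 0.17), with VV mouse 2161-5 above the rest. Its target Acta1, skeletal actin, had 15854 to 25616 FPKM in VV mice and 12855 to 18677 FPKM in MM mice (0.39 ± 0.21). Of 48 muscle differentiation and growth genes 28 were lower and 20 higher (median -0.03, and 0.01 without VV mouse 2296-2), with Igf1, a growth factor, at -0.42 and Actc1, cardiac actin, at 0.45. Of 31 calcium handling genes 20 were lower (median -0.03), of 26 genes of PGC-1α and fatty acid metabolism 15 (median -0.06), of 45 nuclear-encoded respiratory chain genes 29 (median -0.05) and of 43 ribosomal protein genes 27 (median -0.06). Rpl38 had 262 to 307 FPKM in VV mice, against 309 to 365 FPKM in MM mice (-0.25 ± 0.08), and the separation was lost under every rescaling.

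Stress and signalling lists outside these groups were near the background as well, where 68.7% of all tested genes were lower. In exercised VV mice 21 of 26 genes of the unfolded protein and integrated stress response were lower (median -0.09), 7 of 11 MAPK feedback genes (median -0.07), 9 of 17 clock genes (median -0.01), 15 of 26 angiogenesis genes (median -0.01) and 12 of 21 cholesterol synthesis genes (median -0.03). Hif1a, the hypoxia-inducible factor, had 6.88, 8.61, 6.82 and 8.59 FPKM in VV mice, against 8.99, 8.69, 11.4 and 9.71 FPKM in MM mice (-0.33 ± 0.11) and overlapped under every rescaling, and Heg1, an endothelial junction receptor, differed by -0.31 ± 0.10. Of 7 genes of methionine sulfoxide repair and MICAL oxidases, which reduce oxidized methionines or oxidize methionines of actin, 6 were lower (median -0.10, and -0.03 without VV mouse 2161-5). All 4 tested NADPH oxidase subunits were lower, with Cyba at -0.29 and a median of -0.15, which was -0.05 after quantile scaling, -0.07 after median ratio scaling and -0.08 without VV mouse 2296-2.

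**Figure D5:**
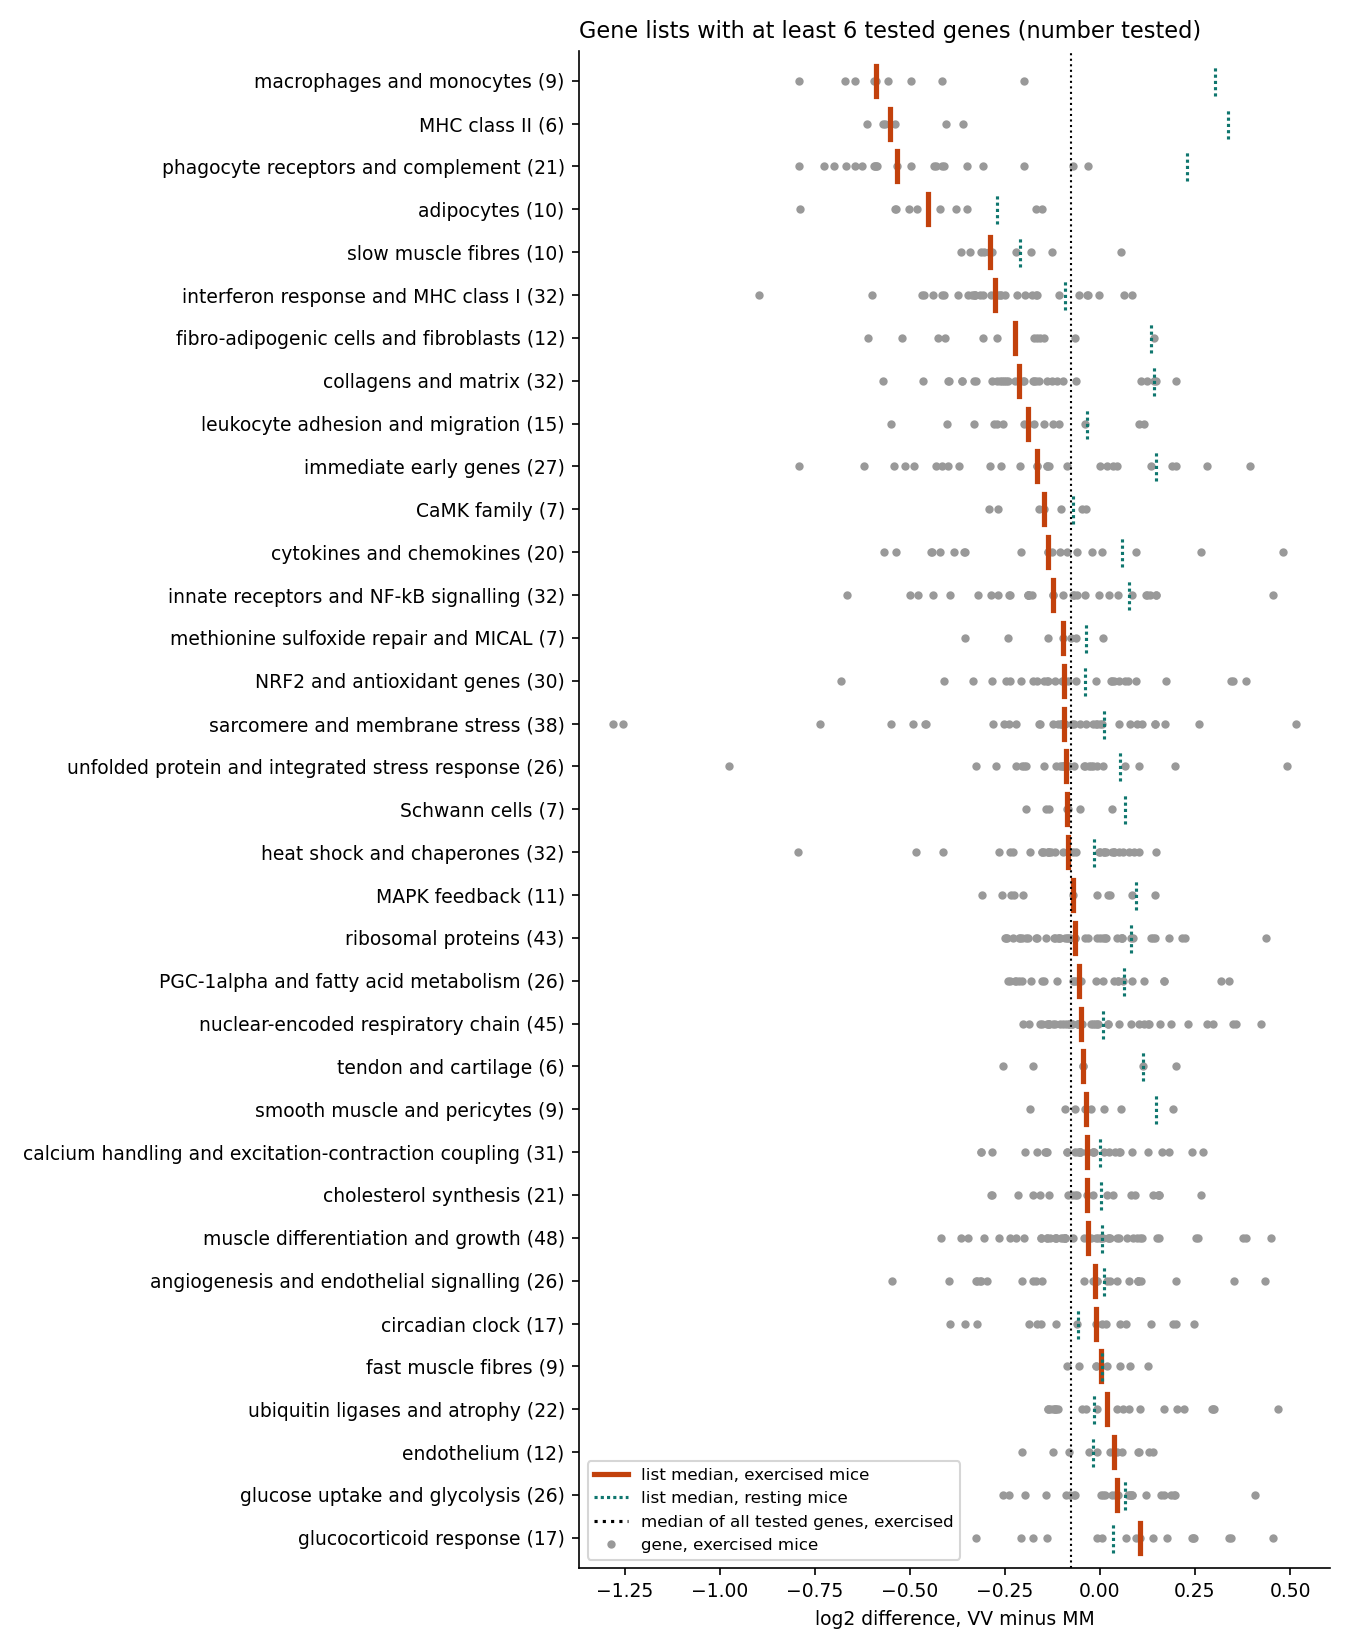
Log2 difference of VV minus MM mice (x axis) for the tested genes of each list (grey points, exercised mice), with the list median in exercised mice (solid bar) and in resting mice (dotted bar). Phagocyte, MHC class II, macrophage and adipocyte lists have exercised medians between -0.59 and -0.45, below the -0.08 of all tested genes (dotted line), and the resting medians of the first 3 lie above 0.

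Setting the exercised comparison against the resting one, limma found 0 genes whose genotype difference itself differed between exercised and resting mice (smallest adjusted p 1.00). At an unadjusted p under 0.05 limma gave 195 genes, fewer than the 526 that would be reached if no gene differed. The smallest p values were those of AI413582 (-1.12 ± 0.28, exercised minus resting difference, limma unadjusted p = 0.00085), Ntn4, a netrin of basement membranes (-0.38 after exercise and 0.62 at rest), and Sigirr, a brake on interleukin-1 signalling (-0.49 and 0.51). Sigirr had 1.48, 1.48, 1.04 and 1.17 FPKM in VV mice, against 1.51, 1.80, 1.65 and 2.53 FPKM in MM mice after exercise, and 1.70, 1.82, 2.27 and 2.10 FPKM in resting VV mice, against 1.35, 1.24, 1.76 and 1.12 FPKM in resting MM mice. Anxa8, an annexin, had 2.03, 2.08, 1.34 and 2.56 FPKM in VV mice, against 3.08, 4.06, 2.66 and 3.25 FPKM in MM mice after exercise, and its difference of -0.70 ± 0.23 there stood beside 0.43 ± 0.23 at rest. In these 4 genes and 8430426J06Rik the exercised value was below 0 and the resting value above it, which is what the choice by this p favours.

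Genes that separated the genotypes in both states were few. Of the 285 genes lower in all 4 exercised VV mice, 6 were also lower in all 4 resting VV mice, namely Lrmda, Camk2g, Chac2, Ppp1r14c, Sgk3 and Xpo5. They were 2.11% of the 285 and 4.58% of the 131 lower at rest, where 2.71% of all 10519 tested genes were lower in all 4 exercised VV mice. Of the 72 higher genes 2 were also higher at rest, namely Sox18 and Phb2. They were 2.78% of the 72 and 2.9% of the 69 higher at rest, where 0.684% of all tested genes were higher in all 4 exercised VV mice. Counts this small leave these shares uncertain, and 0 genes were separated in opposite directions. Sgk3, a kinase of the phosphoinositide pathway, had 2.00 to 2.63 FPKM in VV mice, against 2.72 to 4.66 FPKM in MM mice after exercise, and 2.44, 2.28, 2.54 and 2.23 FPKM in resting VV mice, against 3.75, 3.20, 4.18 and 2.73 FPKM in resting MM mice. Sox18 had 3.39, 2.59, 3.39 and 2.87 FPKM in VV mice, against 2.49, 2.09, 2.08 and 2.26 FPKM in MM mice after exercise, and its difference was 0.74 ± 0.17 at rest. Sgk3 kept its exercised separation under all 3 rescalings and Sox18 under all but GC centring, while Chac2 (-0.22), Ppp1r14c (-0.22), Xpo5 (-0.19) and Phb2 (0.12) lost it under 1 or more.

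Only 4 exercised mice share the first number of their titles across genotypes, the VV mice 2161-5 and 2161-7 and the MM mice 2161-4 and 2161-9, and the labels do not say what that number marks. Among these 4 the log2 difference was -1.68 for Lrmda, -0.40 for Poglut1, -0.37 for Lsm6, -0.93 for Usp18, -1.41 for Ankrd1, -0.63 for Srxn1, -0.80 for Mrc1 and -0.07 for Camk2g, and 0.89 for Slx4, 0.45 for E4f1 and 0.44 for Asb2, on the same side as over all 8 mice.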

How the data were processed

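Whole quadriceps RNA of 16 mice had been sequenced on a NovaSeq as paired reads from a stranded mRNA kit. The authors deposited 1 table of FPKM values per gene, and the submitters' processing notes name TopHat, StringTie, Cuffdiff 2.2.1, SAMtools, FastQC and the build mm10. FPKM values are not counts and read totals were not used here. Of 18873 rows 1 held no value, 8 held missing values, and 271 of the tested rows join several genes. Genes averaging 1 FPKM or more across the 16 mice were tested on log2(FPKM + 0.1) with limma 3.58.1 in R 4.3.3, with 4 group means, trend and robust variances and Benjamini-Hochberg adjustment over all 10519 genes. The genotype contrast in exercised mice, that in resting mice and their difference were taken from this fit. The steps were tested on simulated data. Tables were made with pandas 2.3.3 in Python 3.11.15 and plots with matplotlib 3.10.9.

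Groups were called not overlapping, or separated, when all 4 VV values lay on one side of all 4 MM values. Genes were named by rule: the 20 smallest p values, the 10 highest and 10 lowest differences among separated genes at an unadjusted p under 0.05, up to 4 members of each list by size of difference plus any member at p under 0.01, the CaMKII genes, the 5 smallest p values of the difference between contrasts, and genes that passed at rest. The members and lists were chosen with earlier results of these data known. Genes outside the rule, chosen after their values were seen, include Gbp7, Ifit3, Trim30a, Oasl2, Lgals3bp, Isg15, Rsad2, Bst2, C3, Chac2, Ppp1r14c, Sgk3, Xpo5, Phb2, Rnu6, Rnu1a1, Rn7sk and Lars2, and some list members given with a difference alone. A few genes that the rule names are not reported here. Alternatives covered pseudocounts of 0.01 and 1, no filter and a minimum of 5 FPKM, median ratio and quantile scaling, the 8 mice of a contrast alone, plain variances, sample weights, the title number as a random block and each mouse left out in turn. Centring within 20 bins of GC content (10138 genes with a GENCODE transcript) was added after seeing the data. Coordinates and promoter windows are RefSeq's for GRCm38.p6.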

Additional observations from a re-analysis of the deposited data

Results flagged for a closer look

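Among 188 groups of 4 exercised mice for 94 genes, 13 held a mouse far from the other 3 of its group. Chance flags about 1 in 20 groups, which is 9.4 here. Rnu6, Rnu1a1, Rn7sk and Lars2 had been chosen for their values in VV mouse 2296-2, and without them 9 such mice remain in 180 groups, where chance gives 9. VV mouse 2296-2 had 2725 FPKM of Rnu1a1 (other VV mice 17.8 to 25.4), 136 FPKM of Rn7sk (1.43 to 4.41), 1951 FPKM of Lars2 (66.6 to 91.3) and 59.6 FPKM of Tnnt1 (121 to 131). It also had 316 FPKM of Rnu6, which was listed at 0 in the other VV mice, while the MM mice had 357, 203, 161 and 516 FPKM.

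MM mouse 2297-3 had 50.4 FPKM of Lsm6 (other MM mice 42.4 to 43.2), 3.01 FPKM of Lin9 (1.99 to 2.16) and 1.83 FPKM of Oasl2 (1.14 to 1.17). VV mouse 2296-3 had 2.49 FPKM of Btg3 (other VV mice 1.42 to 1.59) and 2.41 FPKM of Ifit3 (1.87 to 1.91). VV mouse 2161-5 had 31.1 FPKM of Srf (other VV mice 18.2 to 20.1) and 6.74 FPKM of Xpo5 (6.24 to 6.29). MM mouse 2161-9 had 6.47 FPKM of 8430426J06Rik (other MM mice 4.16 to 4.51).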

How the results depend on the processing

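In exercised mice limma passed 0 genes under every alternative run except 1, which left out MM mouse 2161-9 and passed Lrmda, so that leaving out each mouse gave 0 to 1 genes. The count at an unadjusted p under 0.05, 745 genes, ran from 318 without MM mouse 2297-3 to 1530 without VV mouse 2296-3, with 466 without VV mouse 2161-7, 435 without VV mouse 2296-2, 1122 without MM mouse 2161-4, 445 at a minimum of 5 FPKM, 1177 with no filter and 1228 with sample weights. The title number as a random block (correlation 0.231) passed 0 genes and left 677. At rest the count of 1 became 0 under GC centring, median ratio and quantile scaling, a minimum of 5 FPKM (which left Lrmda untested), no filter, the 8 mice alone, a pseudocount of 1 and plain variances, and was 0 to 2 with each mouse left out (2 without 2127-3). The difference between the contrasts gave 0 to 1 genes with each mouse left out (1 without 2127-3).

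Separated genes numbered 72 higher and 285 lower, against 156 and 150 after median ratio scaling, 180 and 146 after quantile scaling and 198 and 125 after GC centring. Genes beyond 2 SD numbered 92 (without 2161-5) to 211 on the high side and 136 to 247 on the low side with each mouse left out, and 329 on the low side after GC centring. Camk2b turned to 0.038 under median ratio scaling and 0.014 under quantile scaling, and ran from -0.097 (without 2161-7) to 0.034 (without 2296-2). The cause of these changes was not tested. Of the 94 genes recomputed under these alternatives, only Lrmda changed its side of the threshold and only Camk2b changed its direction in exercised mice. With 4 mice a group, differences smaller than about 0.29 on the log2 scale were within the 95% interval of a typical gene.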
